A study of Canis lupus familiaris with 10 samples.

Results

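Heat shock proteins and the other molecular chaperones of the canine retina were compared between dogs with glaucoma and healthy dogs. The genes were taken by a rule on names that uses no measured value, although the rule itself was set with earlier results of these data known. A probe set, the group of short oligonucleotides by which the array reads a transcript, was taken if the annotation gave it a single symbol of the HSPA, HSPB, HSPD, HSPE, HSPH, HSP90, DNAJ or CCT series. The symbols TCP1, HSF1, HSF2, HSBP1, BAG1 to BAG5, STUB1, STIP1, ST13, AHSA1, CDC37, PTGES3 and SERPINH1 were added. This gave 192 of the 42924 probe sets on the array, for 85 of 15115 genes with a symbol. A probe set was tested if its log2 intensity was above 7 in at least 2 retinas, which left 135 of the 192 probe sets and 66 of the 85 genes. Where several probe sets of a gene were tested, the one with the highest mean over the 10 arrays stands for it, and the level given for it is a log2 intensity, which cannot be compared between genes.

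The glaucoma group held 5 dogs with spontaneous primary glaucoma of an advanced stage: Shiba Inus of 5 years (glaucoma 1) and 14 years (glaucoma 2), Basset Hounds of 5 years (glaucoma 3) and 7 years (glaucoma 4), and a Dalmatian of 9 years (glaucoma 5). The healthy group held 5 Beagles of 4 years without ophthalmic findings (healthy 1 to 5). Neural retina of a single eye was hybridised to 1 Affymetrix Canine genome 2.0 array for each dog, and all glaucoma dogs had received topical drugs that lower intraocular pressure. The glaucoma eyes were enucleated from clinic patients, whereas the healthy eyes came from dogs euthanized for other reasons. No breed and no age was present in both groups. Disease, treatment, breed, age and the way the eye was obtained therefore cannot be told apart. The samples were whole neural retina, in which fewer cells of a type and less RNA per cell cannot be told apart.

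Chaperones bind unfolded or partly folded proteins and keep them from aggregating. HSP70 proteins work in cycles driven by ATP that J domain proteins start and nucleotide exchange factors such as the HSP110 and BAG proteins complete, and HSP90 and the ring-shaped chaperonins take over selected clients. In the cytosol, the transcription factor HSF1 raises the expression of many of these genes under stress, whereas the chaperones of the endoplasmic reticulum (ER) are raised by the unfolded protein response, and photoreceptors, which fold large amounts of opsin, depend heavily on the ER machinery.

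Of 13 rod markers, 11 were above the minimum level, as were 9 of 9 cone markers. The arrays had similar median intensities of 77.1 to 80.7 and 15910 to 16315 probe sets above the minimum. Glaucoma 1 was the retina least like the others of its group, with correlations of 0.849 to 0.917 against them, while healthy retinas correlated with each other at 0.953 to 0.982. RNA quality was read from control transcripts as the log2 of 3′ over 5′ intensity, which was 0.94 ± 0.14 in glaucoma and 1.19 ± 0.22 in healthy retinas (SD, n = 5 each, exact two-sided permutation test p = 0.0556). All 9 measured microglia and macrophage markers rose (median difference 2.03 on the log2 scale). Of 11 ganglion cell markers 8 fell and 1, SNCG, rose by 2.52 for the probe set taken. The paper lists SNCG among the decreased genes by another probe set, so probe sets of this gene go in opposite directions. Of the amacrine and horizontal cell markers 6 of 7 fell, as did 3 of 5 bipolar cell and 3 of 9 cone markers, with none of these higher, and 0 of 11 rod markers were called by limma (1 at an unadjusted p under 0.05). Pigment epithelium markers were high in glaucoma 1 (median 3.0 above the healthy mean) and healthy 4 (2.53), and lay between -0.63 and 0.97 in the other retinas. The median rod marker lay at -3.38 from its healthy mean in glaucoma 1 and between -0.60 and 0.08 in the other glaucoma retinas. The median cone marker lay at -2.20 in glaucoma 1 and -2.32 in glaucoma 5, and between -1.10 and -0.23 in glaucoma 2, 3 and 4.

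Most chaperone genes differed little between glaucoma and healthy retinas. Of the 66 genes tested, DNAJC3, DNAJC1 and HSPA5 rose and CCT8 and DNAJB14 fell (limma, Benjamini-Hochberg adjusted p under 0.05 over all 18416 tested probe sets). The 3 higher genes were 4.55% of the chaperone genes, while 8.04% of all 7900 tested genes were higher. The 2 lower genes were 3.03% of them, while 8.65% of all tested genes were lower. None of the 66 genes was called with a difference of at least 2-fold, the minimum under which 3.27% of all tested genes were higher and 2.71% lower, and 12 of the 66 (18.2%) had an unadjusted limma p under 0.05, against 32.1% of all tested genes. On the level of single probe sets, 5 of 135 were higher (7.58% of all probe sets) and 2 were lower (9.4%). With single retinas left out in turn, 1 to 4 genes were higher and 0 to 4 lower. Over all tested probe sets, 1396 were higher and 1732 lower, and with single retinas left out 866 to 1606 and 1111 to 2127. With the ratio of 3′ to 5′ signal as a covariate, 408 of all tested probe sets were higher and 522 lower. Without glaucoma 1 and healthy 4, the retinas with high pigment epithelium markers, HSPA5, DNAJC1 and HSPA4 were higher and DNAJA4 was lower. DNAJC3 and SERPINH1 passed the minimum level only through glaucoma retinas, and DNAJC6 and DNAJC18 only through healthy ones.

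The differences of the 66 genes, glaucoma minus healthy on the log2 scale, had a median of -0.04 and ran from -0.68 (PTGES3) to 0.93 (DNAJC3). The median over all 7900 genes was -0.01. In absolute size the median difference was 0.17 for the chaperones and 0.22 for all genes, and 59 of the 66 chaperone genes (89.4%) differed by less than 0.5, as did 78.9% of all genes. The 95% interval of the difference lay within 1 of 0 for 62 of the 66 genes, so a 2-fold change was outside the interval for all of them but DNAJC3, DNAJC25, HSPA4L and PTGES3. It lay within 0.5 of 0 for 32 genes (48.5%, against 42.1% of all genes).

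**Figure D1:**
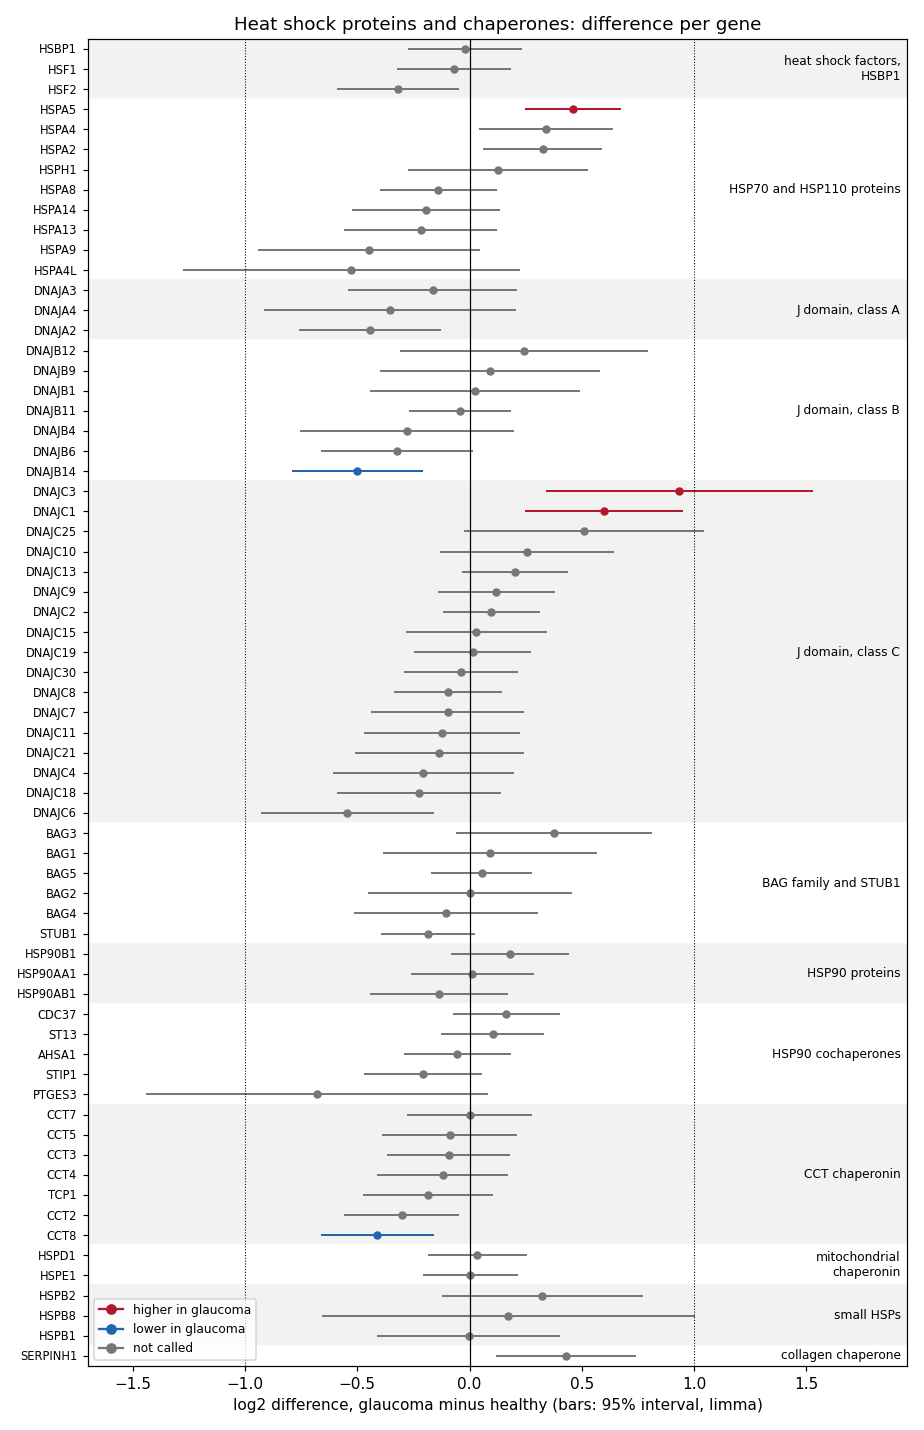
Difference between glaucoma and healthy retinas for each of the 66 tested chaperone genes. The x axis gives the log2 difference, glaucoma minus healthy, points are limma estimates from 5 retinas a group, bars are 95% intervals, dotted lines mark a 2-fold change and shaded bands separate the roles. DNAJC3, DNAJC1 and HSPA5 (red) are the genes called higher, CCT8 and DNAJB14 (blue) the genes called lower, and 62 intervals lie within the dotted lines.

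The regulators of the heat shock response were not called. HSF1, the main activator of heat shock genes, had levels of 8.96, 8.88, 8.89, 8.71 and 8.56 in glaucoma 1 to 5, against 8.87, 8.71, 8.74, 9.08 and 8.95 in healthy 1 to 5. The groups overlapped throughout, and the difference was -0.07 (SE 0.11, limma adjusted p = 0.713). HSF2, a second heat shock factor that can form trimers with HSF1, had 9.29, 9.28, 9.50, 9.23 and 9.12 in glaucoma and 9.68, 9.83, 9.27, 9.58 and 9.65 in healthy retinas. All glaucoma retinas lay below every healthy retina except healthy 3. The difference of -0.32 did not pass the test (SE 0.12, adjusted p = 0.0966), and without healthy 3 it was -0.40 with an adjusted p of 0.0377. With other single retinas left out the difference shrank to as little as -0.26, and the adjusted p reached 0.221. HSBP1, a small protein that binds the trimer of HSF1, differed by -0.02 (adjusted p = 0.926).

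HSPA5 (BiP), the HSP70 protein of the ER and the central sensor of unfolded proteins there, was the gene of the 66 with the most stable call. Its levels were 12.53, 12.51, 12.76, 12.67 and 12.65 in glaucoma 1 to 5, against 12.25, 12.22, 11.99, 12.22 and 12.12 in healthy 1 to 5. Every glaucoma retina lay above every healthy one, and the spread within each group was small. The rise was 0.46 (SE 0.09, limma adjusted p = 0.00793), or 1.37-fold, and the second probe set of the gene gave a rise of 0.62 (adjusted p = 0.00257). It remained called with each of the 10 retinas left out in turn (differences 0.42 to 0.49, highest adjusted p = 0.0244), with age as a covariate (0.52, adjusted p = 0.0254) and with the ratio of 3′ to 5′ signal as a covariate (0.55, adjusted p = 0.0245).

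DNAJC3 (P58IPK), a J domain protein of the ER that works with HSPA5 and also inhibits the stress kinase PERK, showed the largest difference of the 66 genes. Its levels were 8.12, 6.95, 7.72, 7.08 and 8.24 in glaucoma 1 to 5, against 6.76, 6.76, 6.22, 7.12 and 6.59 in healthy 1 to 5. Glaucoma 1, 3 and 5 lay above all healthy retinas, whereas glaucoma 2 and 4 lay below healthy 4. The rise was 0.93 (SE 0.27, adjusted p = 0.0359), or 1.91-fold. The call was lost when glaucoma 1, 3 or 5 or healthy 1, 2, 3 or 5 was left out, with differences of 0.78 to 0.95 and adjusted p between 0.0572 and 0.0842. It was also lost with no minimum level (adjusted p = 0.0506) and with the ratio of 3′ to 5′ signal as a covariate (0.89, adjusted p = 0.193), but not with age (1.26, adjusted p = 0.0355).

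DNAJC1 (ERdj1), which spans the ER membrane and brings HSPA5 to ribosomes docked there, had levels of 8.44, 8.31, 8.43, 8.60 and 9.03 in glaucoma and 8.23, 7.92, 7.65, 8.14 and 7.89 in healthy retinas. The groups did not overlap and the Dalmatian, glaucoma 5, was the highest. The rise was 0.60 (SE 0.16, adjusted p = 0.0249), or 1.52-fold. The call was lost without healthy 2, 3 or 5 (differences 0.52 to 0.59, adjusted p 0.0572 to 0.0626), without the Basset Hounds (0.63, adjusted p = 0.0517) and with age (0.62, adjusted p = 0.0914) or the ratio of 3′ to 5′ signal (0.65, adjusted p = 0.11) as a covariate. The 3 tested probe sets of the gene were not alike: a second rose by 0.75 (adjusted p = 0.0158), whereas the third gave a difference of -0.23 (adjusted p = 0.422). DNAJC1 was the only chaperone gene with probe sets of opposite sign of which any was called.

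The other genes of the ER list among the 66 were not called. HSP90B1 (GRP94), the HSP90 protein of the ER, differed by 0.18 (adjusted p = 0.318), with 12.26 to 12.48 in glaucoma and 11.82 to 12.39 in healthy retinas. DNAJC10, a J domain protein with disulfide reductase activity, differed by 0.26 (adjusted p = 0.334), DNAJB9 by 0.09, DNAJB11 by -0.04 and HSPA13 by -0.22, each with overlapping groups. SERPINH1 (HSP47), the collagen chaperone of the ER, had 7.48, 7.09, 6.73, 6.78 and 7.05 in glaucoma and 6.64, 6.49, 6.69, 6.58 and 6.58 in healthy retinas. All glaucoma retinas lay above all healthy ones, glaucoma 3 by a narrow margin, and the difference of 0.43 missed the threshold (SE 0.14, adjusted p = 0.0585). It was called without glaucoma 3 (0.50, adjusted p = 0.0306) or without glaucoma 4 (0.49, adjusted p = 0.0478). With other single retinas left out its adjusted p reached 0.135.

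HSPA5, DNAJC1 and SERPINH1 were the 3 of the 66 genes (4.55%) for which all glaucoma retinas were above all healthy ones, against 7.29% of all tested genes. SERPINH1 passed the minimum level only through glaucoma retinas, which favours such a separation. CCT8 and DNAJA2 were the 2 genes (3.03%) for which all glaucoma retinas were below, against 7.84% of all tested genes.

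**Figure D2:**
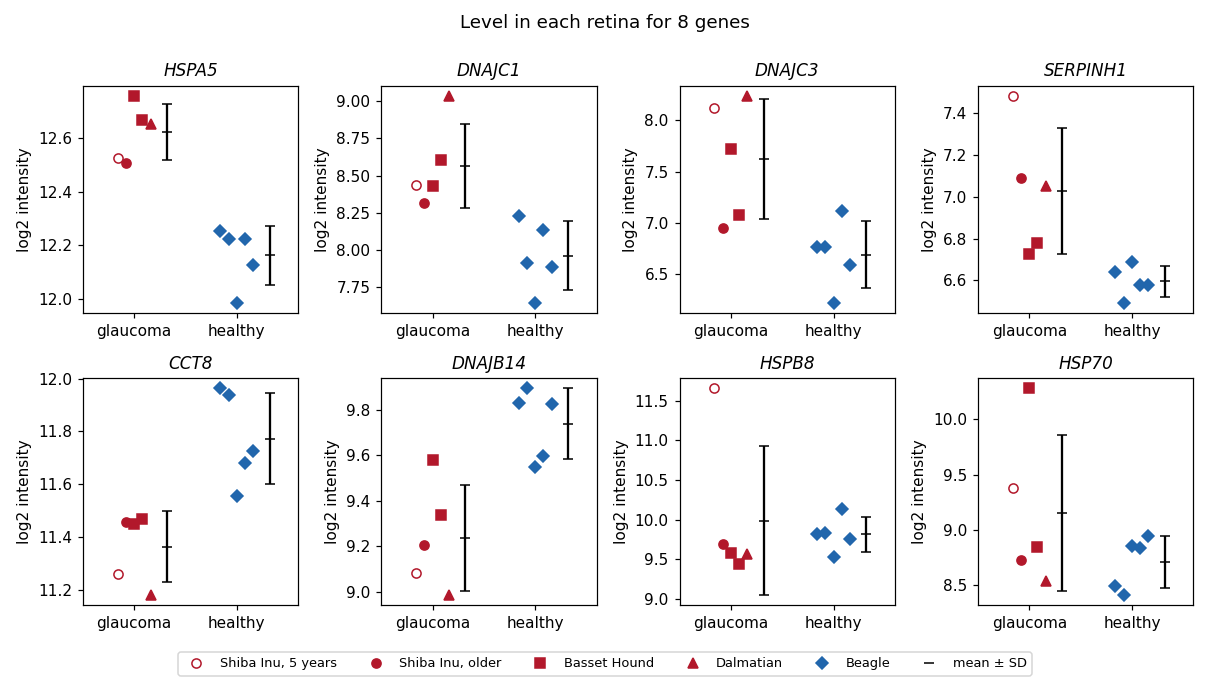
Level of 8 genes in each retina. The y axes give the log2 intensity and have a scale of their own for each gene. Each symbol is 1 dog (breed by shape, group by colour), and the open circle is the Shiba Inu of 5 years. Bars are the mean ± SD of 5 retinas. HSPA5, DNAJC1 and SERPINH1 are higher in every glaucoma retina and CCT8 lower in every one, DNAJC3 and DNAJB14 overlap, and HSPB8 and HSP70 each have a single glaucoma retina far above the rest. DNAJC3 and SERPINH1 passed the minimum level only through glaucoma retinas.

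The HSP70 proteins outside the ER were not called. HSPA8 (HSC70), the constitutive cytosolic HSP70 that also strips clathrin from vesicles, had 12.82, 13.23, 13.31, 13.13 and 12.86 in glaucoma and 13.18, 13.31, 13.11, 13.20 and 13.23 in healthy retinas. Only glaucoma 1 and 5 lay below the healthy range, and the difference was -0.14 (SE 0.12, 95% interval -0.39 to 0.12, adjusted p = 0.439). HSPA2, best known from the testis, had 8.74 ± 0.16 in glaucoma and 8.41 ± 0.17 in healthy retinas, and HSPA4, an exchange factor of the HSP110 type, had 8.75 ± 0.25 in glaucoma and 8.41 ± 0.15 in healthy retinas (SD, n = 5 each). Their differences of 0.33 and 0.34 did not pass (adjusted p = 0.0823 and 0.104), and HSPA2 was called without glaucoma 2 (0.39, adjusted p = 0.0404). With other single retinas left out the adjusted p of HSPA2 reached 0.159. HSPA9 (mortalin), the mitochondrial HSP70, differed by -0.45 (adjusted p = 0.189), with glaucoma 5 lowest at 6.79 and healthy 3, at 7.47, lowest in its group.

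HSPA4L, a stress-inducible relative of HSPA4, varied most among the HSP70 and HSP110 genes. Its levels were 7.00, 8.51, 8.96, 8.84 and 7.74 in glaucoma, against 8.53, 9.07, 8.45, 8.80 and 8.83 in healthy retinas. Glaucoma 1 and 5 lay below all healthy retinas and the other glaucoma retinas within their range. The difference was -0.53 (SE 0.34, adjusted p = 0.31). The stress-inducible cytosolic HSP70 itself is listed in the annotation as HSP70 (also called HSPA1 in dog RefSeq), a symbol that the name rule did not take. Its single probe set had 9.38, 8.73, 10.28, 8.84 and 8.54 in glaucoma and 8.49, 8.41, 8.85, 8.84 and 8.94 in healthy retinas. Glaucoma 3 and 1 were high and the other 3 lay within the healthy range, and the difference was 0.45 (SE 0.29, adjusted p = 0.32), or 0.17 without glaucoma 3.

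Among the J domain proteins that drive cytosolic HSP70, DNAJB14 fell and no class A protein was called. DNAJB14, which is anchored in the ER membrane with its J domain facing the cytosol, had 9.08, 9.20, 9.58, 9.34 and 8.99 in glaucoma and 9.83, 9.89, 9.55, 9.60 and 9.82 in healthy retinas. The groups overlapped by glaucoma 3, which lay just above healthy 3. The gene fell by 0.50 (SE 0.13, adjusted p = 0.0238). The call was lost without glaucoma 5 or without healthy 1, 2 or 5 (differences -0.48 to -0.44, adjusted p 0.0521 to 0.069), and with the ratio of 3′ to 5′ signal (-0.35, adjusted p = 0.234) or age (-0.42, adjusted p = 0.143) as a covariate. DNAJB1 (HSP40), the classical partner of stress-induced HSP70, had 8.81 ± 0.40 in glaucoma and 8.79 ± 0.33 in healthy retinas, a difference of 0.02 (SE 0.21, adjusted p = 0.954). DNAJB6, a suppressor of polyglutamine aggregation, differed by -0.32 (adjusted p = 0.167), and all 3 of its probe sets were below 0.

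DNAJA2, a class A protein that cooperates with HSPA8 in refolding, had 9.82, 10.36, 10.31, 10.34 and 9.77 in glaucoma, against 10.52, 10.72, 10.44, 10.59 and 10.55 in healthy retinas. All glaucoma retinas lay below all healthy ones, with glaucoma 1 and 5 far lower than the other 3. The difference of -0.44 was just outside the threshold (SE 0.14, adjusted p = 0.0542) and was called without glaucoma 2 (-0.50, adjusted p = 0.0403) or glaucoma 3 (-0.49, adjusted p = 0.0461). The adjusted p reached 0.132 with other single retinas left out. DNAJA4 had 9.40, 7.73, 8.53, 8.10 and 8.29 in glaucoma and 8.64 to 8.86 in healthy retinas. Glaucoma 1 was above and the other 4 were below every healthy retina, and the difference was -0.35 (adjusted p = 0.36), or -0.60 without glaucoma 1 (adjusted p = 0.0194). With other single retinas left out the difference shrank to as little as -0.18, and the adjusted p reached 0.618.

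Of the 17 class C proteins tested, DNAJC3 and DNAJC1 were the ones called. DNAJC6 (auxilin), the neuronal protein that recruits HSPA8 to clathrin coats, had 6.52, 6.05, 6.88, 6.51 and 6.08 in glaucoma and 6.62, 7.09, 6.98, 6.89 and 7.17 in healthy retinas. Glaucoma 3 was within the healthy range and the other 4 were below all healthy retinas, and the difference was -0.54 (SE 0.17, adjusted p = 0.0523). It was called without glaucoma 3 (-0.66, adjusted p = 0.0157) or healthy 1 (-0.63, adjusted p = 0.0414). With other single retinas left out, where it was still tested, its adjusted p reached 0.123. DNAJC13 (RME-8), an endosomal J domain protein, differed by 0.20 (adjusted p = 0.206). DNAJC25 differed by 0.51 (adjusted p = 0.168), with glaucoma 1 at 8.58 above all other retinas, and by 0.32 without it.

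The BAG proteins and STUB1, which release clients from HSP70 or send them to degradation, were not called. BAG3, the stress-inducible member that directs aggregates to autophagy, had 10.28, 9.30, 9.99, 9.63 and 10.16 in glaucoma and 9.84, 9.41, 9.32, 9.67 and 9.24 in healthy retinas. Glaucoma 1, 3 and 5 lay above all healthy retinas and glaucoma 2 and 4 among them, the same grouping of dogs as for DNAJC3. The difference was 0.38 (SE 0.20, adjusted p = 0.21). STUB1 (CHIP), the ubiquitin ligase that ubiquitinates chaperone-bound clients, had 10.19 ± 0.07 in glaucoma and 10.38 ± 0.12 in healthy retinas (difference -0.19, adjusted p = 0.192), and 1 of its 3 probe sets gave 0.05. BAG1, BAG2, BAG4 and BAG5 differed by -0.10 to 0.09. The other tested probe sets of BAG5 gave -0.21, -0.49 and -0.51, and none was called.

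The cytosolic HSP90 genes were close to equal in both groups. HSP90AA1, the inducible isoform, had 13.48, 14.07, 13.90, 14.10 and 13.84 in glaucoma and 13.87, 13.86, 13.94, 13.77 and 13.87 in healthy retinas. The glaucoma values lay on both sides of the narrow healthy range, and the difference was 0.01 (SE 0.12, 95% interval -0.26 to 0.28, adjusted p = 0.954). HSP90AB1, the constitutive isoform, had 12.46 ± 0.27 in glaucoma and 12.59 ± 0.14 in healthy retinas (difference -0.14, 95% interval -0.44 to 0.17, adjusted p = 0.528). Of the cochaperones that load and time the HSP90 cycle, CDC37, ST13, AHSA1 and STIP1 differed by -0.21 to 0.16 and none was called. PTGES3 (p23) had 9.68, 8.29, 9.87, 8.52 and 8.85 in glaucoma and 8.96, 9.94, 9.44, 9.93 and 10.33 in healthy retinas. Glaucoma 2, 4 and 5 lay below all healthy retinas and glaucoma 1 and 3 within the healthy range, and the difference of -0.68, the largest downward one of the 66, was not called (SE 0.34, adjusted p = 0.2).

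The chaperonin CCT, a ring of related subunits that folds actin and tubulin, was represented by 7 of 9 genes of the rule. Of the 7, 6 had differences below 0 for the probe set taken, as did 4022 of all 7900 tested genes. The tested probe sets of CCT3, CCT5 and CCT7 had differences of both signs. CCT8 had 11.26, 11.46, 11.45, 11.47 and 11.18 in glaucoma, against 11.96, 11.94, 11.56, 11.68 and 11.73 in healthy retinas. The groups did not overlap, although healthy 3 was close to glaucoma 2, 3 and 4. CCT8 fell by 0.41 (SE 0.11, adjusted p = 0.0299), or to 0.753 of the healthy level, and its second probe set gave -0.28 (adjusted p = 0.122). The call was lost without glaucoma 5 or healthy 1, 2 or 5 (differences -0.42 to -0.36, adjusted p 0.0581 to 0.0858), and with age (-0.43, adjusted p = 0.0926) or the ratio of 3′ to 5′ signal (-0.25, adjusted p = 0.285) as a covariate.

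The remaining CCT subunits did not pass. CCT2 differed by -0.30 (adjusted p = 0.0948), TCP1 by -0.19 (adjusted p = 0.347), and CCT3, CCT4, CCT5 and CCT7 by -0.12 to 0.0021. Per dog, the median CCT gene lay at -0.51 from its healthy mean in glaucoma 1, with 7 of 7 genes below, and at -0.34 in glaucoma 5, with 6 of 7 below. Glaucoma 2, 3 and 4 had medians between -0.07 and 0.09, and the healthy retinas medians between -0.15 and 0.05.

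The mitochondrial chaperonin was the role with the smallest differences. HSPD1 (HSP60), which forms the ring, had 11.71, 11.49, 11.69, 11.53 and 11.61 in glaucoma and 11.67, 11.61, 11.38, 11.71 and 11.51 in healthy retinas. The groups overlapped fully, with a difference of 0.03 (95% interval -0.18 to 0.25, adjusted p = 0.841). HSPE1 (HSP10), its lid, differed by 0.0037 (95% interval -0.20 to 0.21, adjusted p = 0.985).

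The small heat shock proteins, which hold unfolded clients without ATP, were not called. HSPB1 (HSP27), for which antibodies have been described in patients with glaucoma, had 12.62, 12.84, 12.31, 12.78 and 12.04 in glaucoma, against 12.93, 12.56, 12.52, 12.46 and 12.14 in healthy retinas. The ranges were nearly the same, and the difference was -0.0043 (SE 0.18, 95% interval -0.41 to 0.40, adjusted p = 0.991). HSPB2, a muscle-enriched member, differed by 0.32 (adjusted p = 0.291).

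HSPB8 (HSP22), the partner of BAG3 in aggregate clearance, differed by 0.17 (SE 0.37, adjusted p = 0.787), with a single dog far above the rest. Its levels were 11.66, 9.69, 9.57, 9.45 and 9.57 in glaucoma, against 9.82, 9.83, 9.53, 10.13 and 9.76 in healthy retinas. Glaucoma 1 stood alone, and the other 4 glaucoma retinas lay at or below the lower part of the healthy range. Its other probe sets showed the same dog highest, at 9.86 against at most 8.08 and at 8.79 against at most 7.34 in any other retina. Without glaucoma 1 the difference was -0.24. Glaucoma 1 was also the glaucoma retina with the highest pigment epithelium markers (3.0), and healthy 4, the healthy retina with high markers (2.53), had the highest HSPB8 level of its group at 10.13. The median rod marker was lowest in glaucoma 1 as well (-3.38), and was -0.02 in healthy 4. The part of pigment epithelium or rods in the HSPB8 level was not tested.

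**Figure D3:**
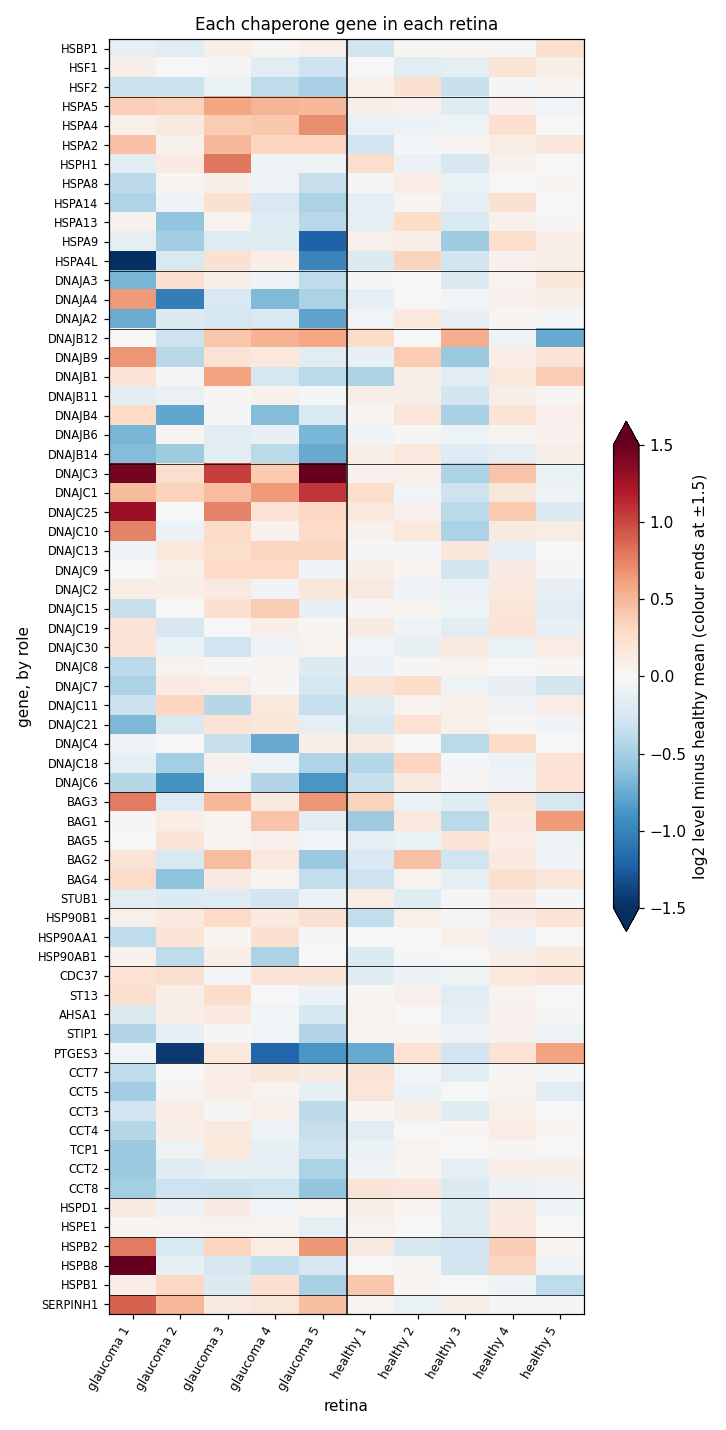
Level of each of the 66 chaperone genes in each retina relative to the mean of the healthy retinas. Rows are genes ordered by role, columns are the 5 glaucoma retinas (left) and the 5 healthy retinas (right), and colour gives the log2 difference from the healthy mean, ending at ±1.5. Glaucoma 1 holds the strongest colours in both directions (HSPB8 and HSPA4L), PTGES3 is dark blue in glaucoma 2, DNAJC3 and HSPB8 reach the dark red end, and the healthy columns are pale.

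The spread between dogs was larger in glaucoma than in healthy retinas for 50 of the 66 genes (75.8%, against 76.1% of all tested genes). The median SD was 0.26 in glaucoma and 0.16 in healthy retinas, and over all genes it was 0.26 in glaucoma and 0.18 in healthy retinas. HSPB8, HSPA4L, PTGES3, DNAJA4 and DNAJC3 had the largest glaucoma SDs, between 0.59 and 0.94. The median chaperone gene lay -0.16 to 0.10 from the healthy mean in single glaucoma retinas and -0.15 to 0.09 in single healthy retinas. No gene was 1 or more from the healthy mean in any healthy retina. In glaucoma 1, DNAJC3, DNAJC25 and HSPB8 were at least 1 above and HSPA4L at least 1 below, in glaucoma 2 DNAJA4 and PTGES3 were below, in glaucoma 3 DNAJC3 was above, in glaucoma 4 PTGES3 was below, and in glaucoma 5 DNAJC1 and DNAJC3 were above and HSPA9 below.

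The chaperones were also grouped by compartment with genes outside the name rule. Of 20 genes listed as ER chaperones, 18 were measured, and 8 of them (44.4%, against 8.04% of all tested genes) rose and 0 fell, with a median difference of 0.35. Of the 9 that belong to the 66 genes, 3 rose, and their median was 0.26. DNAJC3, 1 of these 3, and SERPINH1 passed the minimum level only through glaucoma retinas, which favours a rise in these counts and medians. DNAJC6 and DNAJC18, outside the ER list, passed it only through healthy retinas. The other 57 of the 66 genes, mostly of the cytosol, nucleus and mitochondria, held 0 higher and 2 lower genes, and their median was -0.09. DNAJB14, an ER membrane protein whose J domain faces the cytosol, is not on the ER list and is 1 of these 2 lower genes. The ER list was drawn up with earlier results of these data known, so its count is a description. The median ER gene lay 0.51, 0.22, 0.29, 0.23 and 0.47 above its healthy mean in glaucoma 1 to 5, and at 0.06, 0.06, -0.22, 0.11 and -0.03 in healthy 1 to 5. Every glaucoma retina lay above every healthy one.

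The ER genes outside the name rule that rose fold secreted and membrane proteins. PDIA4 (ERp72), a protein disulfide isomerase, had 10.77, 10.42, 10.16, 10.23 and 10.85 in glaucoma and 9.91, 9.38, 9.64, 9.75 and 9.50 in healthy retinas, without overlap. It rose by 0.85 (SE 0.16, adjusted p = 0.00517), whereas its probe set with the lowest mean gave 0.27 and was not called (adjusted p = 0.297). PDIA6, another isomerase that regulates the stress sensors of the ER, rose by 0.61 (SE 0.13, adjusted p = 0.0107), with 11.07 to 11.38 in glaucoma and 10.14 to 10.79 in healthy retinas. Both were called with any 1 retina left out. SDF2L1, which forms a complex with HSPA5 and DNAJB11, rose by 1.27 (SE 0.32, adjusted p = 0.0215), the only ER gene past 2-fold. Its levels were 10.28, 8.71, 9.07, 8.98 and 9.99 in glaucoma and 8.34, 7.93, 7.88, 8.82 and 7.69 in healthy retinas. Glaucoma 2 lay below healthy 4, and the call was lost without glaucoma 5 or healthy 2, 3 or 5 (adjusted p 0.0502 to 0.0573).

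MANF, a secreted protein of the ER with neurotrophic activity that protects ganglion cells in rodents, rose by 0.38 (SE 0.10, adjusted p = 0.0284), with 10.67 to 11.06 in glaucoma and 10.36 to 10.62 in healthy retinas. Its call was lost without glaucoma 4 or 5 or healthy 1, 3 or 5 (adjusted p 0.0522 to 0.0746). P4HB (PDI), the most abundant disulfide isomerase, rose by 0.32 (adjusted p = 0.0452) and lost its call with any retina but glaucoma 3 left out (adjusted p 0.0546 to 0.11). The lectin chaperones CALR and CANX differed by 0.08 and -0.16 and were not called (adjusted p = 0.848 and 0.336). The count of 8 ER genes fell to 3 (HSPA5, PDIA4 and PDIA6) without healthy 3 or without healthy 5, to 4 without glaucoma 5 or healthy 2 and to 5 without healthy 1. With the ratio of 3′ to 5′ signal as a covariate 1 ER gene, HSPA5, was called. Over all tested probe sets, that covariate also lowered the calls, from 1396 higher and 1732 lower to 408 and 522.

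The microglia and macrophage markers, like the ER genes, separated glaucoma from healthy retinas. Their median lay 1.5 to 2.62 above the healthy mean in glaucoma retinas and between -0.24 and 0.23 in healthy retinas, and 9 of 9 measured markers rose, among them C1QC by 3.44 and CSF1R by 3.26. Among glaucoma retinas, glaucoma 1 and 5 were highest and glaucoma 2 was lowest for both lists. The medians of glaucoma 1, 5 and 2 were 2.47, 2.62 and 1.5 for these markers and 0.51, 0.47 and 0.22 for the ER genes. The order within glaucoma 1 and 5, and within glaucoma 3 and 4, was not the same in both lists. Among healthy retinas the order differed, as healthy 3 was highest for these markers (0.23) and lowest for the ER genes (-0.22). The median of the Müller glia and astrocyte markers also separated the groups (0.18 to 1.26 in glaucoma, -0.10 to 0.12 in healthy retinas). The part of any cell type in the rise of HSPA5, DNAJC3, DNAJC1 and the other ER genes was not tested.

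**Figure D4:**
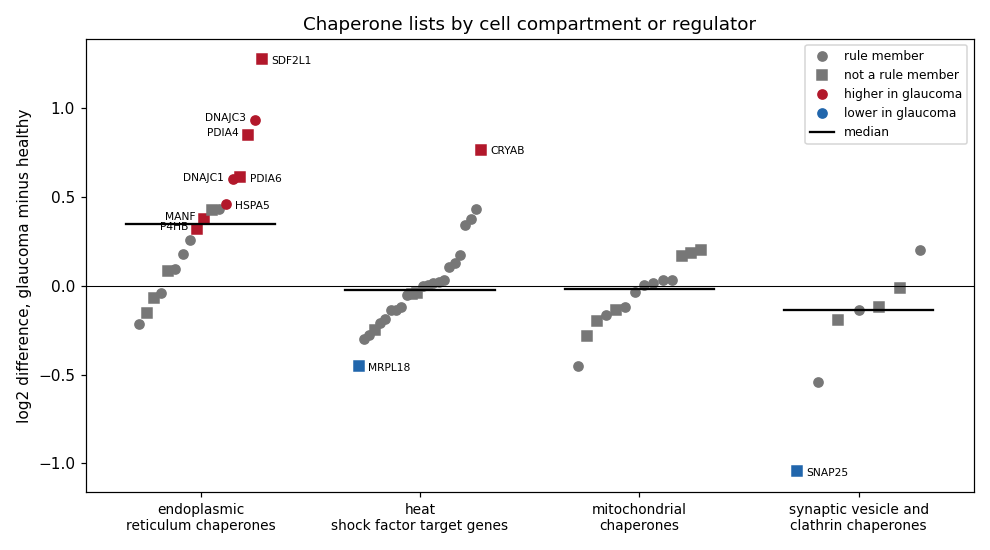
Differences of the genes of 4 chaperone lists. The y axis gives the log2 difference, glaucoma minus healthy; each symbol is 1 gene, circles belong to the 66 genes of the name rule and squares do not, red and blue mark genes called higher and lower, and bars are list medians. The ER list holds 8 red genes around a median of 0.35, while the medians of the heat shock factor targets (-0.02), mitochondrial chaperones (-0.02) and synaptic vesicle chaperones (-0.14) are near or below 0.

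Genes that heat shock factor is known to activate did not move together. Of 28 listed, 24 were measured, and CRYAB rose, MRPL18 fell and 22 were not called (median -0.02). Of all tested genes, 8.04% were higher and 8.65% lower. The inducible HSP70 was listed as HSPA1A and HSPA1B, symbols under which it was not measured, and is not in this count. The probe set annotated as HSP70 differed by 0.45 (limma adjusted p = 0.32). CRYAB (alpha-B-crystallin), a small heat shock protein of lens, glia and retina, had 12.27, 11.71, 11.99, 11.31 and 12.003 in glaucoma and 11.42, 10.65, 11.05, 11.24 and 11.10 in healthy retinas. Only glaucoma 4 lay below the highest healthy retina. It rose by 0.76 (SE 0.19, adjusted p = 0.0205), and the call was lost without glaucoma 5 (adjusted p = 0.0523) or healthy 2 (adjusted p = 0.0535). None of the 7 lens markers was called, and their median per retina ran from -0.63 to 1.09 in glaucoma and from -0.50 to 1.27 in healthy retinas. Of the Müller glia and astrocyte markers, 3 of 10 rose (AQP4, CD44 and GFAP), and the part of glia in the CRYAB level was not tested. MRPL18, a mitochondrial ribosomal protein with a stress-induced cytosolic form, fell by 0.45 (SE 0.11, adjusted p = 0.0159).

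The other lists gave few calls. Of 16 mitochondrial chaperones, 14 were measured and 0 were called by limma, also 0 at an unadjusted p under 0.05. Of all tested genes, 8.04% were called higher and 8.65% lower, and 32.1% had an unadjusted limma p under 0.05. Of 10 genes listed for the chaperones of synaptic vesicles and clathrin coats, 7 were measured and none of the chaperones among them was called. SNAP25, a synaptic SNARE protein on the list as a client of such chaperones, fell by 1.04 (SE 0.30, adjusted p = 0.0346). SNAP25 had 11.35, 12.91, 12.96, 12.83 and 11.78 in glaucoma and 13.31 to 13.52 in healthy retinas, so that glaucoma 1 and 5, also the lowest for HSPA4L and DNAJA2, were far below the rest. Its call was lost without glaucoma 5 or any 1 healthy retina (adjusted p 0.0598 to 0.0853). Of the ganglion cell markers 8 of 11 fell and SNCG rose for the probe set taken. Of the amacrine and horizontal cell markers 6 of 7 fell, as did 3 of 5 bipolar cell markers. The part of these cell types in the SNAP25 and DNAJC6 levels was not tested.

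Of 41 further chaperones and cochaperones outside the name rule, 36 were measured. Of these 6 rose and 2 fell, while 8.04% of all tested genes were higher and 8.65% lower. CLU (clusterin), a secreted chaperone, had 14.61, 14.49, 14.47, 14.60 and 14.58 in glaucoma, against 14.20, 14.06, 14.22, 14.10 and 14.06 in healthy retinas. The groups were far apart for their spread, and CLU rose by 0.42 (SE 0.08, adjusted p = 0.00639) and was called with any 1 retina left out. TTC4, a cochaperone of HSP90 and HSP70, rose by 0.47 (adjusted p = 0.0218), as did CRYAB and the ER isomerases PDIA4, PDIA6 and P4HB described above. CDC37L1, a relative of the kinase cochaperone CDC37, fell by 0.66 (SE 0.15, adjusted p = 0.0131), and PFDN2, a subunit of prefoldin, which hands actin and tubulin to CCT, fell by 0.46 (SE 0.11, adjusted p = 0.0186). The PFDN2 call was lost without healthy 5 (adjusted p = 0.0517). The other 28 were not called, and the median of the 36 was 0.01. With the ratio of 3′ to 5′ signal as a covariate CLU (adjusted p = 0.057), CRYAB (0.109), TTC4 (0.233), CDC37L1 (0.141) and PFDN2 (0.115) were not called, nor were MRPL18 (0.0971) and SNAP25 (0.291).

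Several probe sets were available for 43 of the 66 genes. All of them had differences of 1 sign for 25 genes and of both signs for 18. The range between probe sets reached 0.5 for BAG5, DNAJB6 and DNAJC1. The 19 genes of the rule with no tested probe set were CCT6B, CCT8L2, DNAJB3, DNAJB5, DNAJB7, DNAJB8, DNAJB13, DNAJC5B, DNAJC12, DNAJC16, DNAJC17, DNAJC22, DNAJC27, HSPA12A, HSPA12B, HSPB3, HSPB6, HSPB7 and HSPB9. Of these, DNAJC12, a J domain protein that binds aromatic amino acid hydroxylases, had a mean of 5.94 in glaucoma and 6.72 in healthy retinas and was called lower when no minimum level was used. It was picked after its values were seen.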

How the data were processed

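Total RNA of neural retina was hybridised to 1 Affymetrix Canine genome 2.0 array for each of 5 glaucoma and 5 healthy dogs. The authors normalized the arrays with RMA, and the deposited intensity values are on a linear scale for all probe sets. Their log2 was taken here, and 111 control probe sets were left out. Of 42924 probe sets, 29254 had a single gene symbol, 439 several and 13231 none in the platform annotation. Probe sets above a log2 of 7 in at least 2 arrays, the minimum of the methods, entered a linear model in limma (version 3.58.1, R version 4.3.3), with p-values adjusted over all 18416 tested probe sets by the Benjamini-Hochberg method. The script was tested on simulated data. Because RMA makes the intensity distributions of the arrays equal, a shift of all genes at once would not be seen. The number of arrays limits the precision. Nothing says whether arrays shared a processing batch. Ages are those of the labels; the publication gives other ages for glaucoma 2 and 5, which bears on the fit with age as a covariate.

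The members, the gene lists and the rule for named genes were chosen with earlier results of these data known. The rule took the called members, the member with the smallest adjusted p in each role, a list of well-known members (HSF1, HSF2, HSPB1, HSPA8, HSPA5, HSP90AA1, HSP90AB1, HSPD1, DNAJB1, BAG3, STUB1 and SERPINH1), members with discordant probe sets of which any was called, the 3 largest uncalled differences and, of each list, up to 4 called genes in each direction. The other genes for which values are given, such as HSPB8, HSP70, DNAJA4, HSPA2, HSPA4, TTC4 and P4HB, were picked after their values were seen. The label permutation method named in the methods (SAM) was not run. No sequence of these genes is printed because no genome of the dog was used here.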

Additional observations from a re-analysis of the deposited data

Results flagged for a closer look

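In 12 of 158 groups of 5 retinas (79 genes in 2 groups), the highest or lowest retina stood apart from the other 4, with a gap to its nearest neighbour of more than 0.71 of the whole range. Chance flags about 1 in 20 such groups.

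Of the 5 glaucoma groups, glaucoma 1 stood apart for HSPB8, with a gap of 0.888 of the range (11.66, the others 9.45 to 9.69), and for TTC4, with 0.787 (8.05, the others 7.68 to 7.76). Glaucoma 3 stood apart for CDC37, with 0.814 (8.22, the others 8.43 to 8.48), and for MRPL18, with 0.722 (9.51, the others 9.16 to 9.26). Glaucoma 5 was low for HSPE1, with 0.902 (11.83, the others 12.02 to 12.04).

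In all 7 healthy groups it was healthy 3 that was low. The gap was 0.84 of the range for DNAJC10 (9.34, the others 9.87 to 9.97), 0.792 for DNAJB11 (9.92, the others 10.21 to 10.28) and 0.788 for PDIA6 (10.14, the others 10.66 to 10.79). All of these work in the ER. The gap was 0.758 for HSPA9 (7.47, the others 8.07 to 8.26), 0.749 for DNAJB4 (9.93, the others 10.44 to 10.61), 0.745 for DNAJC9 (8.62, the others 8.92 to 9.02) and 0.713 for ST13 (10.18, the others 10.35 to 10.43). The median of the 66 chaperone genes in healthy 3 was -0.15, the lowest of the healthy retinas, and that of the 18 ER genes was -0.22. Without healthy 3, HSPA5 rose by 0.42 and PDIA6 by 0.50 and both were called (adjusted p = 0.0207 and 0.0118), whereas DNAJC1 and DNAJC3 were not.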

How the results depend on the processing

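Chaperone genes called higher and lower (3 and 2), probe sets (5 and 2) and ER list genes called higher (8) were recounted under each alternative. Over all tested probe sets the main fit called 1396 higher and 1732 lower. The exact Wilcoxon test, which the methods name beside SAM without stating an adjustment of its p-values, called 0, 0, 0, 0 and 0 once adjusted here over all probe sets (6, 6, 11, 7 and 9 at an unadjusted p under 0.05), as it called 0 of all probe sets, and a 2-fold minimum left 0, 0, 0, 0 and 1. Array weights gave 6 and 8 genes and 8 and 11 probe sets, and raised the calls over all probe sets to 2095 and 2811. The ratio of 3′ to 5′ signal as a covariate gave 1 and 0 genes, 2 and 0 probe sets and 1 ER gene (408 and 522 of all probe sets). Age gave 0 lower genes, 0 lower probe sets and 5 ER genes (1246 and 886 of all probe sets). The age slope rests on the glaucoma dogs alone. Probe sets with no s, x or a suffix gave 1 and 1 genes and 2 and 1 probe sets, the lowest-mean probe set 1 lower gene and 5 ER genes, and no minimum level 4 lower probe sets. Leaving out the Shiba Inus gave 1 lower gene and 1 lower probe set, the Basset Hounds 5 and 7, and glaucoma 1 with healthy 4, chosen after seeing the data, 1 and 1. Over all probe sets these fits called 1571, 2252 and 1421 lower. With single retinas left out, higher genes numbered 1 to 4, lower genes 0 to 4, higher probe sets 3 to 8, lower probe sets 0 to 7 and ER genes 3 to 8. The calls over all probe sets then ran from 866 to 1606 higher and from 1111 to 2127 lower. The labels call the number of a retina a biological replicate. Deviations of retinas with the same number correlated at -0.24 to 0.07, which cannot tell whether such retinas shared a processing step. The replicate block gave 0 and 0 genes, 2 and 0 probe sets and 3 ER genes (943 and 1114 of all probe sets). The cause of these shifts was not tested.

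Single genes turned sign in 3 cases past 1 SE or from a call: STUB1 (0.046, lowest-mean probe set), DNAJC1 (-0.23, no suffix) and DNAJA4 (0.16, age). Of the other values of named genes under the alternatives, 1095 stayed on their side of the threshold, 142 lost a call and 31 gained one; a change of sign of an uncalled value within 1 SE was counted as no change.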

Other observations

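A few relatives of the chaperones lay outside the name rule, and those given here were picked after their values were seen. HSPBAP1, a protein that binds HSPB1, fell by 0.48 (SE 0.12, limma adjusted p = 0.0236) for a probe set with 6.96 ± 0.24 in glaucoma and 7.43 ± 0.10 in healthy retinas (SD, n = 5 each), while its other probe set gave -0.21 (adjusted p = 0.204). HSPBP1, an exchange factor of HSP70, had 3 probe sets with differences of -0.30, -0.19 and -0.09, and none was called (lowest adjusted p = 0.0783). TRAP1, the mitochondrial HSP90, had 8.71 ± 0.14 in glaucoma and 8.85 ± 0.15 in healthy retinas (adjusted p = 0.418). The probe sets of HSF4, the heat shock factor of the lens, and of HSF5 were below the minimum level. A probe set that the annotation gives to both HSP90AA1 and LOC607470 differed by 0.14 (adjusted p = 0.667).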
